A study of Mus musculus with 6 samples.

Results

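Immediate early genes are transcribed within minutes of a stimulus from factors that the cell already holds, with no need for new protein. Growth factors, stress, calcium entry and wounding act through MAP kinases, serum response factor and CREB on their promoters, and most of the transcripts are short-lived. In skin they are known as an early response of keratinocytes, fibroblasts and immune cells to injury. The 10 genes described here were taken by symbol from a deposited table of 57010 genes, in which each of the 10 symbols stood in 1 row. They are the AP-1 subunit genes Fos, Fosb, Fosl1, Jun and Junb, the transcription factor genes Egr1 and Nr4a1, the early response genes Ier2 and Ier3, and the MAP kinase phosphatase gene Dusp1. All 10 passed the filter on low values (mean FPKM of 1 or more), as did 14588 genes in all.

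The samples were skin of 6 mice labelled WT, 1 library per mouse, taken when a diabetic ulcer experiment ended. Gel with CST (cortistatin in the series title, a neuropeptide related to somatostatin) was applied in 3 mice, and gel with Yoda1, a small molecule that opens the calcium channel Piezo1, in the other 3. No source used here gives the strain, the age, the way diabetes was induced or the time from the last gel to sampling. Skin without either compound was not analysed here, so each difference sets CST against Yoda1 and does not say which group moved.

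The values are FPKM, that is, reads scaled to the length of the gene and to the mapped depth of the library. The depth recovered from the steps of the values was 23791352 to 29620526 reads per library. The share of mitochondrially encoded transcripts in the summed FPKM was 3.25% to 3.81% in 4 libraries, but 6.72% for CST mouse 1 and 7.61% for Yoda1 mouse 3, and the members' changes without both of these libraries are given in the closing section. The labels tag the samples as keratinocytes. All 12 keratinocyte markers were at 1 FPKM or more, and so were all 10 fibroblast, 12 macrophage and 14 skeletal muscle markers, so the libraries held several cell types. In such bulk samples fewer cells of a type and less RNA per cell cannot be told apart.

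The promoters of the genes whose values separated the groups (Jun, Dusp1 and Ier3) and of 3 members whose values overlapped (Fos, Fosb and Nr4a1) are shown because such genes are known for the control elements near their starts. Each line holds the 250 bases before the RefSeq start on GRCm38.p6, in the direction of the gene. Capitals mark the motifs named below the sequences. The RefSeq start is not always the outermost start in the GENCODE M21 annotation, whose gene positions are given below. By those positions the Dusp1 and Nr4a1 windows lie inside the genes, and the Ier3 and Fosb windows run into them.
Jun promoter, chr4:95052223-95052472, minus strand: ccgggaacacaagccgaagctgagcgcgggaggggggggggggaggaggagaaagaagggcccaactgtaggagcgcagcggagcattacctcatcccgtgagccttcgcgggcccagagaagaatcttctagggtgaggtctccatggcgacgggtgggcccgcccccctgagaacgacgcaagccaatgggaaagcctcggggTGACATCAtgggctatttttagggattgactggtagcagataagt
Dusp1 promoter, chr17:26508473-26508722, minus strand: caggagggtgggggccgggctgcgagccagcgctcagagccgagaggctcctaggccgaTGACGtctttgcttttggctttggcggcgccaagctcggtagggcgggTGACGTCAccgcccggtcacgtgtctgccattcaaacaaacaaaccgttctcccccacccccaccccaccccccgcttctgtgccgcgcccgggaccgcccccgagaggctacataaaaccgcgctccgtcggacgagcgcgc
Ier3 promoter, chr17:35821463-35821712, plus strand: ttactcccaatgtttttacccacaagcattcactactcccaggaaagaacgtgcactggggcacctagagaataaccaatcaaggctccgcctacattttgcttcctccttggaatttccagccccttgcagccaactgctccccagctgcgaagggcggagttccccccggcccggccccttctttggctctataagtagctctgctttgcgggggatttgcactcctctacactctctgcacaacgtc
Fos promoter, chr12:85473640-85473889, plus strand: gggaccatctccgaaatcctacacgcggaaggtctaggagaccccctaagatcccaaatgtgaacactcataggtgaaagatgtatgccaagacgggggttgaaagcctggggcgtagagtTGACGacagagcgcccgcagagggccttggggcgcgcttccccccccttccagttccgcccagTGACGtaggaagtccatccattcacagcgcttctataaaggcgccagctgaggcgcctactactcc
Fosb promoter, chr7:19310046-19310295, minus strand: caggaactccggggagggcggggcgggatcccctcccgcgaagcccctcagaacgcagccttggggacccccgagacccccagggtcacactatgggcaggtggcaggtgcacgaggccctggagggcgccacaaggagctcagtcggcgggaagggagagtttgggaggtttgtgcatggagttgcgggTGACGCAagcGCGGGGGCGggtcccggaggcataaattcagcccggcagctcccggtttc
Nr4a1 promoter, chr15:101266596-101266845, plus strand: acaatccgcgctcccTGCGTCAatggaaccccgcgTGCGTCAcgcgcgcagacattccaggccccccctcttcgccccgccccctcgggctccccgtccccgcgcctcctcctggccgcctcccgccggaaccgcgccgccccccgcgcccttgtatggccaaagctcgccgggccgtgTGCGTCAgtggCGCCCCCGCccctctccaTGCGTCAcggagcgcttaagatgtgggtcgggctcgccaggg

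RefSeq windows were matched for 7 of the 10 members, these 6 and Junb. Motifs were searched on both strands of the 250 bases. TGACGTCA, the full element bound by CREB and ATF proteins, stood in Dusp1, 143 to 136 bases before the start, and in 1.55% of all 32851 promoter windows. GCGNGGGCG, the element bound by EGR proteins, stood in Fosb (50 to 42 bases before the start) and in Nr4a1 (60 to 52 bases, on the other strand), and in 4.70% of all windows. The CArG box of serum response factor (1.47% of all windows), the AP-1 element TGANTCA (6.75%) and the NR4A element AAAGGTCA (1.34%) had no match in these 7 windows, which says only that those letters are not within 250 bases. The strings TGACG and TGCGTCA and also TGACATCA were searched after the sequences had been seen. TGACG, the core that TGACGTCA also contains, stood in 5 of the 7 windows (Fos, Fosb, Junb, Nr4a1 and Dusp1) and in 17.8% of all windows. TGCGTCA stood at 4 positions in Nr4a1, the nearest 42 to 36 bases before the start, and overlapped a TGACG on the other strand each time; it also stood in Fosb and in 1.75% of all windows. TGACATCA stood in Jun, 45 to 38 bases before the start, and in 2.93% of all windows. The Ier3 window held none of the motifs searched. The 7 windows had a GC content of 54.4% to 74.4%, beside a median of 52.4% over all windows.

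The comparison asked whether these genes differed between skin given CST and skin given Yoda1. Of the 10 genes, 9 had a higher mean on the log2 scale in CST skin. The median log2 change of the 10 was 0.53, beside -0.015 over all genes tested, 47.2% of which had a change above 0. The 10 and the related lists below were chosen with earlier results of these data known. Values set beside all genes therefore describe these lists and do not test them. In Jun, Ier3 and Dusp1 the 3 CST values all exceeded the 3 Yoda1 values, whereas 4.52% of all genes tested separated in that direction. None of the 10 passed the threshold: limma called 0 of 10 and 0 of all 14588 genes (0%) at an adjusted p under 0.05. At an unadjusted p under 0.05 there were 3 of the 10, the same Jun, Ier3 and Dusp1, beside 4.00% of all genes. That count depended on single libraries. It was 5 of 10 when CST mouse 2 (4.02% of all genes) or Yoda1 mouse 3 (11.5%) was left out, 2 when CST mouse 1 was (4.13%), and 1 when Yoda1 mouse 1 (3.16%) or Yoda1 mouse 2 (4.09%) was. Limma-voom on recovered reads gave 0 calls among the members and 3 at an unadjusted p under 0.05. Without CST mouse 2 the members' median log2 change was 0.83, and with CST mouse 3 left out it was 0.36. With library weights estimated by limma, Jun and Ier3 were called, 2 of 10 members beside 9.24% of all genes. Those weights came from the same libraries and were 12.8, 0.657 and 0.193 for Yoda1 mice 1 to 3. The weighted Yoda1 mean thus rested mostly on Yoda1 mouse 1. Leaving out 1 library at a time called 0 of 10 members each time, beside 0.0548% of all genes without CST mouse 2, 0.932% without Yoda1 mouse 2 and 0% otherwise.

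**Figure D1:**
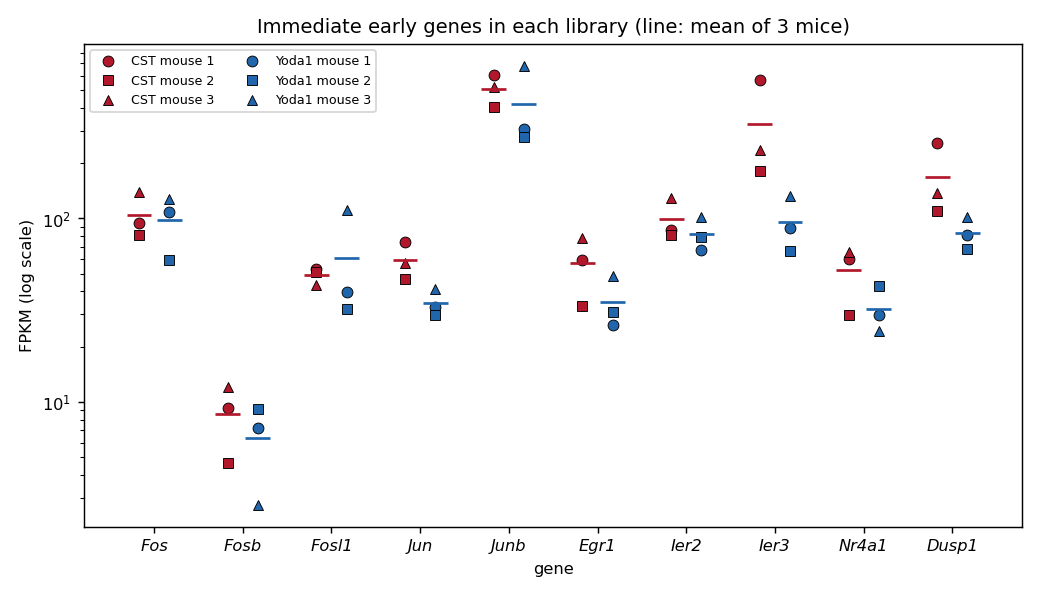
FPKM on a log axis of the 10 genes in each of the 6 libraries, with CST in red, Yoda1 in blue, the mouse number as the symbol and lines at the mean of 3 mice. The groups are apart in Jun, Ier3 and Dusp1, and in the other 7 genes they overlap.

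Ier3 encodes a stress-induced protein that acts on cell survival, and it had the largest log2 change of the 10 genes. It measured 568, 182 and 235 FPKM in CST mice 1 to 3, against 88.3, 66.2 and 132 in Yoda1 mice 1 to 3. CST mouse 1 stood far above every other library, and the lowest CST value was still above the highest Yoda1 value. The log2 change was 1.65 (95% interval 0.61 to 2.69, SE 0.45, limma adjusted p = 0.592), and 1.16 when CST mouse 1 was left out. The gene has 2 exons in GENCODE M21 (ENSMUSG00000003541, chromosome 17, 35821684 to 35822923 on GRCm38).

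Dusp1 encodes a dual-specificity phosphatase that removes the activating phosphates of p38, JNK and ERK kinases and so limits the signal that induces it. Its values were 258, 110 and 138 FPKM in CST mice 1 to 3, against 80.8, 68.4 and 102 in Yoda1 mice 1 to 3. CST mouse 1 was again the highest library, and CST mouse 2 and Yoda1 mouse 3 lay close together at the border of the groups. The log2 change was 0.93 (95% interval 0.14 to 1.71, SE 0.34, limma adjusted p = 0.902), and 0.57 without CST mouse 1. The annotated span of Dusp1 (ENSMUSG00000024190, chromosome 17, 26505590 to 26562128), introns included, overlaps that of Ergic1 on the opposite strand by 640 bases. Whether this overlap lies in exons was not examined. Ergic1 measured 33.4 to 54.9 FPKM, and its highest library was Yoda1 mouse 2, where Dusp1 was lowest.

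Neutrophil markers were uneven between the libraries. The summed FPKM of the 13 markers was 11257, 1906 and 1820 in CST mice 1 to 3, against 1659, 760.0 and 4144 in Yoda1 mice 1 to 3, and Camp, Ly6g, Ngp and Ltf had means under 1 FPKM, and no marker of the list was at 0 in every library. CST mouse 1 was highest for the marker sum, Ier3 and Dusp1. CST mice 2 and 3 had marker sums close to that of Yoda1 mouse 1, with Ier3 at 182 and 235 against 88.3 FPKM. Yoda1 mouse 3 exceeded CST mice 2 and 3 in the marker sum and lay below them in Ier3 and Dusp1. The macrophage sum was 1511 to 2087 in CST mice and 4455, 5282 and 1487 in Yoda1 mice 1 to 3, higher in 2 of the 3 Yoda1 mice. The fibroblast sum was likewise high in Yoda1 mice 1 and 2, at 12189 and 10977, against 3852 in Yoda1 mouse 3 and 3986 to 6628 in CST mice. The keratinocyte sum was lowest in Yoda1 mice 1 and 2, at 11594 and 12364, which were also the libraries with the lowest mean of the 10 genes, and it was 14758 to 22253 in CST mice and 26349 in Yoda1 mouse 3. Endothelial, T cell, mast cell and adipocyte sums overlapped between the groups. The skeletal muscle sum was 8285 to 14840 in CST mice and 132, 6110 and 653 in Yoda1 mice, a separation of the groups like that of Jun, Ier3 and Dusp1. The part of these cell types in the members' values was not tested.

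Jun and Junb encode partners of Fos proteins in the AP-1 dimer, and Jun can also pair with itself. Jun, which has a single exon (ENSMUSG00000052684, chromosome 4, 95049034 to 95052222), measured 74.8, 46.7 and 57.1 FPKM in CST mice and 32.9, 29.9 and 41.4 in Yoda1 mice 1 to 3. The groups did not overlap, and the pooled spread within groups was narrower than for any other member (SD of 0.29 on the log2 scale, beside a median of 0.33 over all genes tested and 0.53 over the 10 members). The log2 change was 0.75 (95% interval 0.18 to 1.31, SE 0.24, limma adjusted p = 0.753). The annotated span of Jun overlaps that of the antisense gene Junos by 689 bases. Reads from exons that both share cannot be told apart unless counting used strand, which no source used here states. Junos was listed at 1.41 to 3.52 FPKM and was also highest in CST mouse 1.

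Junb was the most abundant of the 10, at 603, 406 and 518 FPKM in CST mice and 306, 279 and 678 in Yoda1 mice 1 to 3. Yoda1 mouse 3 had the highest value of all and Yoda1 mice 1 and 2 the lowest, so the groups overlapped. The log2 change was 0.38 (95% interval -0.48 to 1.23), and it ranged from 0.14 when Yoda1 mouse 2 was left out to 0.78 when Yoda1 mouse 3 was. Leaving out Yoda1 mouse 1 gave 0.21, and leaving out CST mouse 1 gave 0.25. The ratio of Junb to Jun, looked at after the values had been seen, was 8.06 to 9.33 in 5 libraries and 16.4 in Yoda1 mouse 3. The annotated span of Junb (ENSMUSG00000052837, chromosome 8, 84974484 to 84978718), introns included, overlaps that of Prdx2 on the opposite strand by 351 bases. Prdx2 was listed at 115 to 284 FPKM and was lowest in Yoda1 mouse 3.

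Fos (ENSMUSG00000021250, chromosome 12, 85473890 to 85477273) encodes an AP-1 subunit that binds DNA only with a partner such as Jun. It measured 94.4, 81.2 and 139 FPKM in CST mice and 108, 59.5 and 127 in Yoda1 mice 1 to 3. High and low libraries stood in both groups, and the log2 change was 0.13 (95% interval -0.65 to 0.91, SE 0.34, limma adjusted p = 1.00). The interval holds changes of either sign, and the change was below 0 without CST mouse 3 (-0.09) or without Yoda1 mouse 2 (-0.20). Leaving out Yoda1 mouse 1 gave 0.23, leaving out CST mouse 2 gave 0.29, and leaving out Yoda1 mouse 3 gave 0.35.

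Fosb, a close relative of Fos (ENSMUSG00000003545, chromosome 7, 19302696 to 19310051), was the least abundant member, at 9.22, 4.64 and 12.0 FPKM in CST mice and 7.23, 9.18 and 2.75 in Yoda1 mice 1 to 3. Its lowest value was in Yoda1 mouse 3, where 214 reads gave an exact 95% Poisson interval of 2.39 to 3.15 FPKM, for counting error only. The log2 change of 0.42 (95% interval -0.62 to 1.46) was -0.012 without that library, and it was 0.16 when CST mouse 3, 0.71 when Yoda1 mouse 2 and 0.76 when CST mouse 2 was left out. Fosl1 encodes Fra-1, an AP-1 subunit that lacks the transactivation domain of Fos. It was the only member with a negative change, at 53.1, 50.8 and 43.2 FPKM in CST mice and 40.0, 31.9 and 112 in Yoda1 mice 1 to 3. Yoda1 mouse 3 stood apart, and the log2 change of -0.10 (95% interval -1.10 to 0.91) was 0.44 without it; without another library it stayed below 0, from -0.45 (Yoda1 mouse 2) through -0.29 (Yoda1 mouse 1) and -0.16 (CST mouse 1) to -0.012 (CST mouse 3). In that mouse Fosl1 was thus at its highest and Fosb at its lowest, a ratio of 40.5 against 3.48 to 11.0 in the other 5 libraries. The keratinocyte marker sum was also highest in Yoda1 mouse 3, and its part in the Fosl1 value was not tested. The annotated span of Fosl1 (ENSMUSG00000024912, chromosome 19, 5447547 to 5455946), introns included, overlaps that of Ccdc85b on the opposite strand by 2767 bases. Ccdc85b was listed at 2.74 FPKM in Yoda1 mouse 3, its lowest library.

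**Figure D2:**
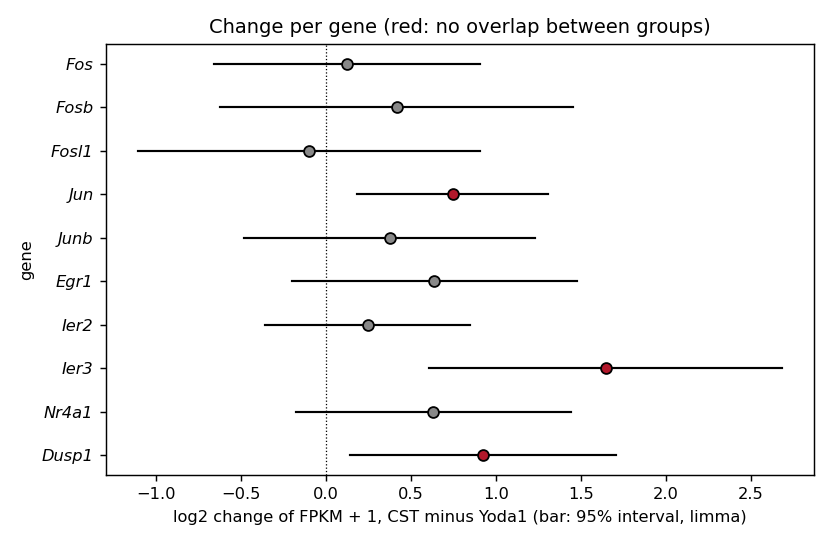
Log2 change of FPKM + 1, CST minus Yoda1, for each of the 10 genes with its 95% interval from limma, red where the groups did not overlap. The intervals of Jun, Ier3 and Dusp1 lie above 0 before adjustment, and those of the other 7 genes include 0.

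Egr1 (ENSMUSG00000038418, chromosome 18, 34859823 to 34864984) encodes a zinc finger factor that binds GC-rich promoters. It measured 59.2, 33.2 and 78.3 FPKM in CST mice and 26.2, 31.0 and 48.6 in Yoda1 mice 1 to 3, with CST mouse 2 inside the range of the Yoda1 mice. The log2 change was 0.64 (95% interval -0.20 to 1.48, SE 0.36, limma adjusted p = 1.00), with 0.37 when CST mouse 3 and 0.98 when CST mouse 2 was left out. Nr4a1 (ENSMUSG00000023034, chromosome 15, 101254269 to 101274795) encodes the orphan nuclear receptor Nur77. Its values were 60.5, 29.9 and 65.9 FPKM in CST mice and 29.9, 42.7 and 24.2 in Yoda1 mice 1 to 3, so CST mouse 2 and Yoda1 mouse 1 were level. Its log2 change of 0.63 (95% interval -0.17 to 1.44) was 0.98 without CST mouse 2, 0.43 without CST mouse 3 and 0.31 without both CST mouse 1 and Yoda1 mouse 3. Ier2, a nuclear protein gene with 1 exon (ENSMUSG00000053560, chromosome 8, 84661331 to 84662852), had the smallest ratio of highest to lowest library of the 10, with 86.6, 81.0 and 130 FPKM in CST mice and 67.3, 79.2 and 102 in Yoda1 mice 1 to 3. All 3 CST values were above the 2 lowest Yoda1 values, but Yoda1 mouse 3 exceeded CST mice 1 and 2. Its log2 change was 0.25 (95% interval -0.36 to 0.85). Leaving out CST mouse 3 gave 0.039 and leaving out Yoda1 mouse 1 gave 0.11, against 0.37 for CST mouse 2 and 0.40 for Yoda1 mouse 3.

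The members did not rank the libraries in 1 common order. CST mouse 3 held the highest value of 5 members (Fos, Fosb, Egr1, Ier2 and Nr4a1), CST mouse 1 that of 3 (Jun, Ier3 and Dusp1) and Yoda1 mouse 3 that of 2 (Junb and Fosl1). CST mouse 2 held no highest and no lowest value, and Yoda1 mouse 2 held the lowest value of 6 members. The mean log2(FPKM + 1) of the 10 genes was 6.66, 5.95 and 6.56 in CST mice 1 to 3, against 5.72, 5.63 and 6.13 in Yoda1 mice 1 to 3. By this mean, CST mouse 2 lay below Yoda1 mouse 3. The ratio of the highest to the lowest library ran from 1.93 for Ier2 to 8.59 for Ier3.

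**Figure D3:**
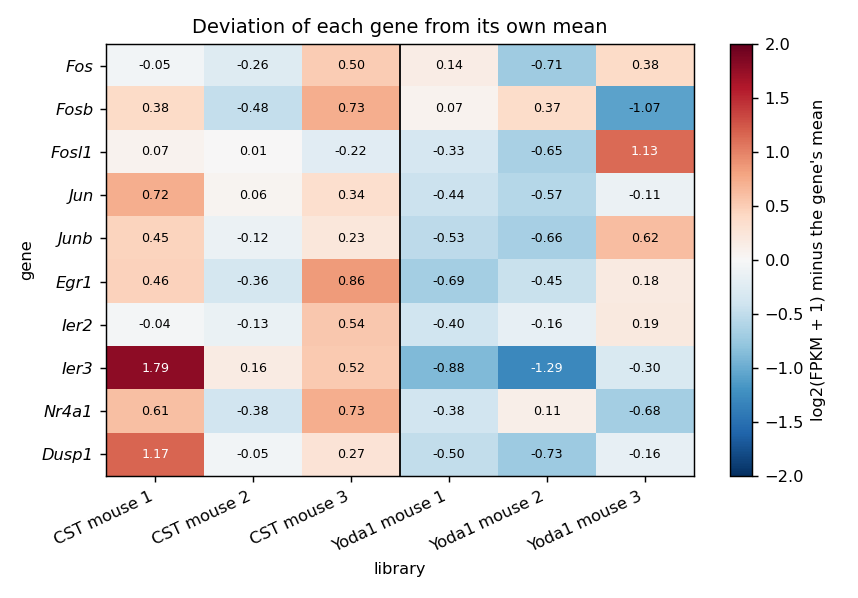
Log2(FPKM + 1) of each gene (rows) in each library (columns) minus the gene's mean over the 6 libraries, in red above and blue below. Ier3 reaches 1.79 in CST mouse 1 and -1.29 in Yoda1 mouse 2, and Yoda1 mouse 3 holds both the highest Fosl1 (1.13) and the lowest Fosb (-1.07).

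Of the genes outside the list, those whose centred log2 values lay nearest to the mean of the 10 over the 6 libraries were Gm49933, Mfap3l, Rabgef1, Hk2 and Ppm1l. Their mean absolute difference from it was 0.07 to 0.10 on the log2 scale. The distance of the members themselves from their own mean was 0.13 for Jun to 0.54 for Ier3. Those outside genes were picked as the nearest of all tested, so their shorter distances follow from that choice. Gm49933 was also low, at 0.74 to 2.42 FPKM. Rabgef1 measured 85.3, 53.1 and 67.7 FPKM in CST mice and 40.0, 34.5 and 53.7 in Yoda1 mice 1 to 3.

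The divisor behind the FPKM bears on levels set between genes. It cancels in a gene's own FPKM ratio between libraries, and it enters the change of log2(FPKM + 1) only through the added 1. For 94.2% of the 12124 tested genes with several transcripts in GENCODE M21 it was the mean length of the annotated transcripts within 1 base, and for 0.0825% it was the merged exon length. Short annotated fragments therefore raise a gene's FPKM: Fos was divided by 1092 bases while its longest transcript has 2108, and Fosl1 by 906 while its longest has 1864. In deposited FPKM the order of the means over 6 libraries was Junb (465), Ier3 (212), Dusp1 (126), Fos (102), Ier2 (90.9), Fosl1 (55.1), Jun (47.1), Egr1 (46.1), Nr4a1 (42.2) and Fosb (7.50). Per longest transcript it was Junb (296 FPKM), Ier3 (212), Ier2 (91.0), Dusp1 (81.5), Fos (52.6), Jun (47.1), Egr1 (38.6), Fosl1 (26.8), Nr4a1 (25.9) and Fosb (6.49). On that scale Nr4a1 lay above Fosb in 6 of 6 libraries, Fosl1 above Nr4a1 in 3 and Fos above Jun in 4, so the last 2 pairs of neighbours were not separated by the spread between libraries.

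Shares within a family do not depend on the scaling between libraries, but they do depend on the divisor. Jun took 9.32%, 7.15% and 6.84% of the summed FPKM of Jun, Junb and Jund in CST mice. In Yoda1 mice 1 to 3 it took 6.06%, 5.09% and 4.91%, with no overlap between the groups. The share holds the same Jun values that separated the groups above, so it is not independent of them. Junb took 75.2%, 62.2% and 62.1% in CST mice and 56.3%, 47.4% and 80.4% in Yoda1 mice, and Jund, the member of the family that is expressed without a stimulus, took most of the rest. CST mouse 1 and Yoda1 mouse 3 had the highest Junb shares and the lowest Jund shares (15.5% and 14.7%, against 30.7% to 47.5% in the other 4), and they are the 2 libraries of high mitochondrial share. Of the Fos family, Fos took 50.2% ± 8.74 in CST and 49.4% ± 6.62 in Yoda1 skin (SD, n = 3), Fosl1 24.1% ± 4.88 and 28.4% ± 9.13, Fosl2 21.6% ± 5.06 and 18.2% ± 1.73, and Fosb 4.07% ± 1.35 and 4.02% ± 3.19. Per longest transcript the Fosb share was 6.48% ± 2.12 and 6.38% ± 4.96 and the Fosl1 share 21.7% ± 4.47 and 25.8% ± 8.96. On both scales the differences between the group means in the Fos family were smaller than the larger SD of each pair.

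**Figure D4:**
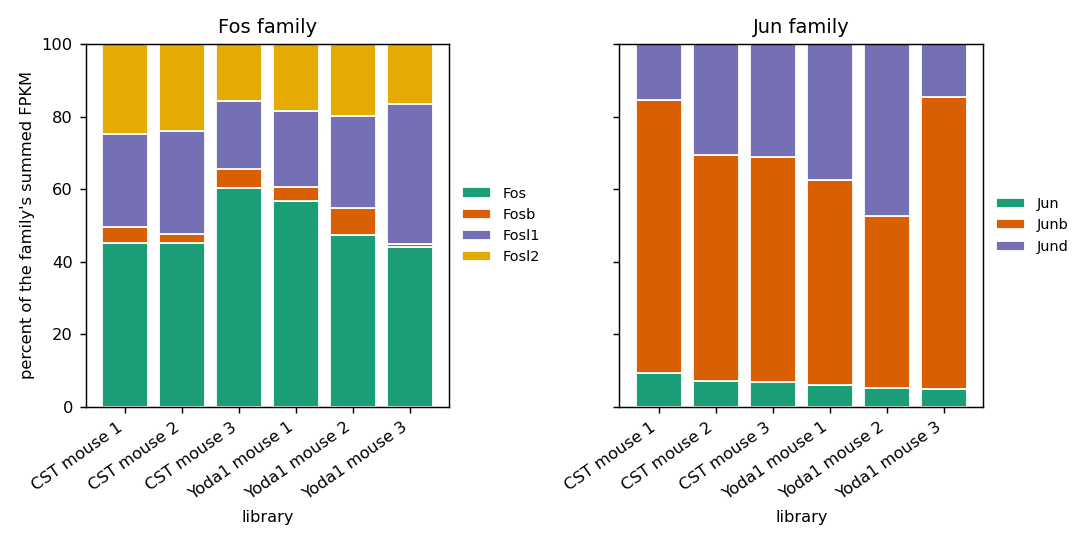
Percent of each family's summed FPKM taken by each gene, stacked per library, for Fos, Fosb, Fosl1 and Fosl2 on the left and Jun, Junb and Jund on the right. The Jun share is 6.84% to 9.32% in CST libraries and 4.91% to 6.06% in Yoda1 libraries.

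Of 17 listed relatives of the members, from the FOS, JUN, EGR, NR4A, IER and DUSP families, 16 were tested. None passed, 12 of 16 had a positive change, and their log2 changes had a median of 0.34, which fell to 0.20 when Yoda1 mouse 2 was left out and reached 0.47 when Yoda1 mouse 3 was. All CST values lay above all Yoda1 values in 2 of 16, Dusp2 and Nr4a3, beside 4.52% of all genes tested. Dusp2, a nuclear MAP kinase phosphatase of immune cells, measured 11.9, 5.35 and 5.57 FPKM in CST mice and 2.53, 2.24 and 2.09 in Yoda1 mice 1 to 3 (log2 change 1.31, SE 0.31, limma adjusted p = 0.537). Nr4a3, a paralogue of Nr4a1, measured 15.0, 3.16 and 6.58 in CST mice and 2.52, 1.84 and 2.48 in Yoda1 mice (log2 change 1.29). Dusp10 had a log2 change of 0.64 with overlapping groups.

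Other bZIP partners of AP-1 were positive in 8 of 11 cases, with 0 of 11 called and a median log2 change of 0.16. Leaving out Yoda1 mouse 2 gave a median of 0.10, leaving out CST mouse 3 gave 0.26, and leaving out Yoda1 mouse 3 gave 0.31. The CST values lay above the Yoda1 values in 1 of 11, the repressor gene Jdp2, beside 4.52% of all genes. Jdp2 measured 29.6, 15.4 and 14.7 FPKM in CST mice and 14.1, 10.5 and 6.54 in Yoda1 mice 1 to 3 (log2 change 0.86). Maff, a small Maf protein gene, had a change of 0.87 and the stress factor gene Atf3 one of 0.84, both with overlapping groups.

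Of 33 other primary response genes tested, 0 were called and 24 had a positive change, with a median of 0.22. Leaving out 1 library gave medians from 0.15 (CST mouse 1) to 0.38 (Yoda1 mouse 1), with 0.37 for CST mouse 3 and 0.35 for Yoda1 mouse 3. In 10 of the 33 every CST value lay above every Yoda1 value and in 0 the reverse (4.52% and 2.08% of all genes). They are named here after their values were seen: Gadd45a, Gadd45b, Gadd45g, Nfkbia, Btg2, Zfp36, Trib1, Plk3, Pim1 and Ptgs2. This list too was chosen with earlier results of these data known, so its counts describe it and do not test it. Gadd45b, a stress sensor that binds MAP kinase kinases, measured 209, 71.8 and 119 FPKM in CST mice and 42.8, 29.0 and 31.8 in Yoda1 mice 1 to 3 (log2 change 1.80, SE 0.38, limma adjusted p = 0.521). Gadd45a measured 129, 71.3 and 71.2 in CST mice and 30.8, 43.8 and 25.9 in Yoda1 mice (log2 change 1.38, limma adjusted p = 0.521). Nfkbia, the inhibitor that NF-kappaB induces to limit itself, measured 302, 215 and 201 in CST mice and 135, 147 and 103 in Yoda1 mice (log2 change 0.89). CST mouse 1 was the highest library for these 3 genes, as it was for Jun, Ier3 and Dusp1. It also had the highest neutrophil marker sum and a high mitochondrial share. Yoda1 mouse 3, with the next highest marker sum, was lowest for Gadd45a and Nfkbia. Yoda1 mouse 2, with the lowest marker sum, was lowest for Gadd45b. The part of neutrophils or of mitochondrial share in these values was not tested.

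Genes that lie upstream were also listed. The kinases of the MAP kinase cascades with Srf, its cofactors, the Elk factors and Creb1 had a median log2 change of -0.0061 over 22 genes, 11 positive and 11 negative, and 0 were called. With 1 library left out that median ran from -0.07 (CST mouse 2) to 0.08 (CST mouse 3). Crem, a gene for a CREB-related factor, had the largest change of that list, 0.52, and Braf, a kinase of the ERK cascade, one of 0.31, both with overlapping groups. Mrtfa, a cofactor of Srf, had its 3 CST values below its 3 Yoda1 values, the reverse separation that 2.08% of all genes showed (log2 change -0.24, limma adjusted p = 1.00). The list of corepressors and feedback inhibitors (Nab, Sprouty and Spred genes), which also held Cops5, had a median of -0.04 over 8 genes. In it 0 were called, and changes ran from -0.14 for Nab2 and Spred1 to 0.23 for Spry1, with 0.015 for Cops5. The median of that list ran from -0.12 without Yoda1 mouse 2 to 0.04 without CST mouse 3. Heat shock chaperones, which respond to protein damage, had a median of 0.11 over 8 genes, with 0 called and 0 separated. Hspa1a had a change of 0.68, Hspb1 one of 0.48 and Bag3 one of 0.11, and the sign of the median turned with the library left out, at -0.11 for Yoda1 mouse 1, -0.025 for Yoda1 mouse 2 and 0.48 for Yoda1 mouse 3. The difference between these lists and the members was not tested.

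**Figure D5:**
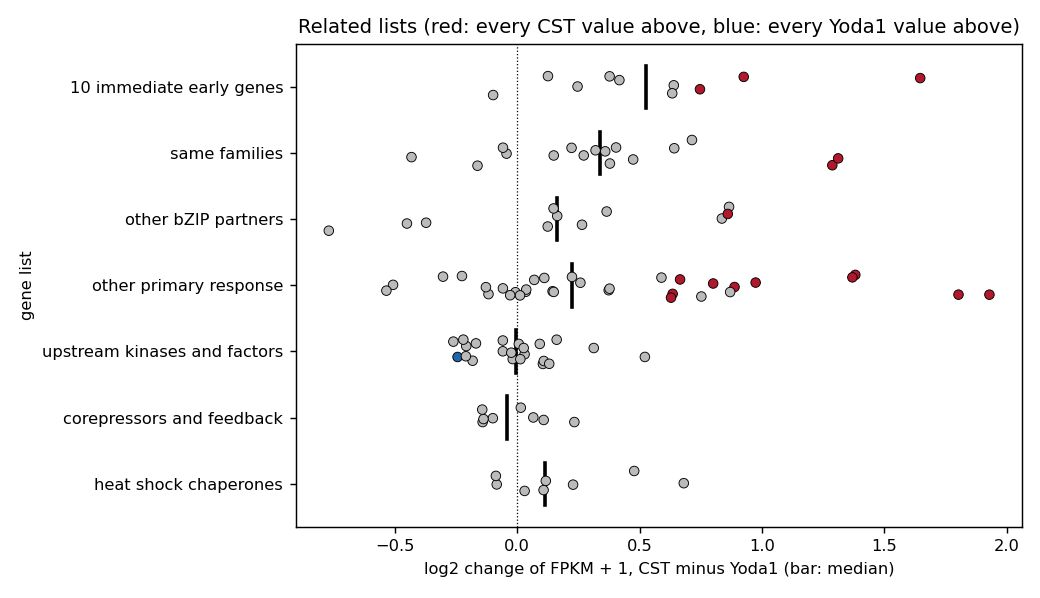
Log2 change of FPKM + 1, CST minus Yoda1, of every tested gene of each list, with a bar at the list's median; red marks genes whose CST values all lie above the Yoda1 values and blue the reverse. Medians run from -0.04 for the list of corepressors and feedback inhibitors with Cops5 to 0.53 for the 10 immediate early genes.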

How the data were processed

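RNA of 6 skin samples was sequenced (3 CST, 3 Yoda1; groups and mouse numbers from the titles). The authors deposited FPKM per gene, per the file headers; no source used here names the aligner or counter, and the submitters' processing notes name GRCm38 and mm10. Deposited starts equalled the GRCm38 starts for 2.81% of matched identifiers, so positions are those of GENCODE M21. Whole reads were recovered from the FPKM steps for 30696 of 30697 genes above 0, within 0.0001 reads; at wrong depths 0% of 500 genes gave whole reads. Members had 214 to 18564 reads, for which the exact 95% Poisson interval reached on average 1.44% to 13.6% of the value to each side (counting error only).

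Limma 3.58.1 in R 4.3.3 (trend, two-sided) was fitted to log2(FPKM + 1) of 14588 genes whose mean FPKM was 1 or more, with Benjamini-Hochberg adjustment over all of them and a threshold of 0.05; fold changes on this scale understate those of low genes. Limma was also run on simulated data that had the same dispersion in every gene, and no result here rests on that run. The p-values set each difference between groups against the spread between these mice within groups. Each gene's variance was drawn towards a trend over all genes. Members and lists were chosen with earlier results of these data known. Named were all members, the 3 genes of smallest p in each related list and the 5 nearest profiles; 7 further primary response genes were named after their values were seen. Alternatives covered pseudocount, filter, scaling, variance model, library weights, recovered reads, the replicate block and each library left out.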

Additional observations from a re-analysis of the deposited data

How the results depend on the processing

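The members' median log2 change stayed above 0 in all 18 alternatives, from 0.36 to 0.83, both reached by leaving out a library (without CST mouse 3 and without CST mouse 2). The changes of Jun (0.57 to 0.91), Ier3 (1.16 to 1.98) and Dusp1 (0.57 to 1.18) kept their sign in all 18, with limma adjusted p from 0.0309, 0.0199 and 0.0593 up to 1.00. With library weights estimated by limma, 0.193 for Yoda1 mouse 3 to 12.8 for Yoda1 mouse 1, 1348 genes were called (9.24% of those tested), among them 2 members, Jun (0.62) and Ier3 (1.27); 6 members and 29.0% of all genes had an unadjusted p under 0.05, the heat shock median was then 0.69, Nr4a1 was 0.32, and Fos (-0.18), Fosb (-0.20) and Fosl1 (0.285) had the opposite sign. With those weights the Yoda1 mean rested mostly on Yoda1 mouse 1. Without Yoda1 mouse 2 there were 136 called genes (0.932%), and without CST mouse 2 there were 8 (0.0548%). Leaving out 1 library at a time gave 0 to 136 called genes and 0 called members each time. The other bZIP partners then had a median of 0.10 to 0.31, the highest without Yoda1 mouse 3. Fos had the opposite sign without CST mouse 3 (-0.09) and without Yoda1 mouse 2 (-0.20), and Fosb (-0.012) and Fosl1 (0.44) without Yoda1 mouse 3; over the 6 libraries left out in turn Fos ran from -0.20 to 0.35, Fosb from -0.012 to 0.76 and Fosl1 from -0.45 to 0.44. Without both libraries of high mitochondrial share, chosen after seeing the data, 0 genes were called, 4 members and 12.5% of all genes had an unadjusted p under 0.05, the members' median was 0.57, and Fosb (-0.10) and Fosl1 (0.38) had the opposite sign; Fos was then 0.40, Jun 0.70, Junb 0.65, Egr1 0.82, Ier2 0.48, Ier3 1.42, Nr4a1 0.31 and Dusp1 0.72, and the heat shock median 0.48. The causes were not tested. The labels state no pairing of the samples by mouse number. Deviations of same-numbered mice correlated at -0.08, 0.21 and -0.20, and those of other pairs at -0.34 to 0.34. With so few mice these values cannot show whether any samples were paired. With the replicate block 0 genes and 0 members were called and the members' median was 0.53.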
